A study of Homo sapiens with 4 samples.

Results

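The microRNA processing machinery was described through 10 genes, chosen by name as the enzymes, cofactors, export receptor and effector proteins of the pathway. All 10 were found among the 26255 gene symbols listed for each library, and all 10 reached the minimum level of 1 FPKM in each of the 4 libraries. FPKM, fragments per kilobase of transcript scaled to library size, gives levels of different genes per length. The group was singled out because DICER1 stood low in 1 knockout library. The levels of DICER1 are therefore a description and carry no test, and tests are given for the 9 other genes.

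The cells were HCT116, an established human colorectal cancer line, without any stated treatment. Control cells (EV control, 2 libraries) are labelled as carrying an empty vector, but their columns are headed AAVS1, a site often targeted as a neutral control. Knockout cells (KO, 2 libraries) are labelled as knocked out for C14orf159, now named DGLUCY, a gene for a protein of the mitochondrial matrix. Their columns are named sgDGLUCY, and no source used here says whether the KO libraries came from clones, pools or separate cultures. The p-values thus rest on library-to-library spread that may be only technical.

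A microRNA is cut from a long primary transcript in the nucleus by the microprocessor, made of the nuclease DROSHA and its RNA-binding partner DGCR8. Exportin-5, the product of XPO5, carries the resulting hairpin to the cytoplasm, where DICER1 cuts it into a duplex with the help of TARBP2 or PRKRA. A strand of the duplex is loaded into an Argonaute protein (AGO1 to AGO4), which represses messenger RNAs that pair with the seed, bases 2 to 8 of the microRNA. Of the Argonautes, AGO2 is the one best known for cutting its target. The libraries came from a messenger RNA kit and do not measure mature microRNAs.

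The targeted gene C14orf159 measured 16.2 and 16.4 FPKM in EV control cells, against 2.52 FPKM in KO replicate 1 and 10.8 FPKM in KO replicate 2, or 15.5% and 66.2% of the EV control mean. In bulk RNA, fewer cells with a transcript and less of it per cell cannot be told apart. Library sizes were roughly 12.47 to 13.39 M fragments, read from the FPKM steps of single-transcript genes. Epithelial markers were present, with KRT8 between 1291 and 1540 FPKM and EPCAM between 236 and 314 FPKM, while CDX1 was listed at 0 in all 4 libraries and VIL1, CEACAM5 and LGR5 were at or near 0. The summed level of 5 fibroblast markers was at most 0.198 FPKM and that of 3 endothelial markers at most 0.135 FPKM. Of 4 leukocyte markers, PTPRC, CD3E and MS4A1 were listed at 0, and CD68 had 1.88 to 2.87 FPKM.

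The sequences through which the pathway acts on its own genes are shown first. DICER1 messenger RNA is a known target of the microRNAs miR-103 and miR-107 in its 3′ untranslated region and of let-7 in its coding region, and HMGA2, IGF2BP2 and IGF2BP3 are known let-7 targets. The mature sequences, from RefSeq (assembly GRCh38.p14), form 2 groups by shared seed, printed in capitals.
hsa-let-7a-5p: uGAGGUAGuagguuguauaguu
hsa-miR-98-5p: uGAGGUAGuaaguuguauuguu
hsa-miR-103a-3p: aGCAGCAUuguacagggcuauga
hsa-miR-107: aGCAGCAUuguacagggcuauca

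In the principal DICER1 transcript of GENCODE release 29 the 7-base match to the miR-103/107 seed, ATGCTGC on the sense strand, occurred 5 times in the 4270 bases of the 3′ untranslated region. The same match was present in 11.3% of 17963 3′ untranslated regions, and in 27.8% of the 1640 whose length lay within 25% of that of DICER1. These 25-base windows give each match in capitals, with positions counted from the first base after the stop codon.
DICER1 3′ UTR position 1034: acctaaaatATGCTGCagattttat
DICER1 3′ UTR position 1635: cttcgtggaATGCTGCatttatatg
DICER1 3′ UTR position 2839: gtcctaactATGCTGCgttttataa
DICER1 3′ UTR position 4110: taccatcacATGCTGCagctgtttt
DICER1 3′ UTR position 4162: acagtaatcATGCTGCagaaatttg

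The match to the let-7 seed, CTACCTC, was not found in the 3′ untranslated region of DICER1 and occurred 4 times in its coding sequence. Positions are counted from the first base of the coding sequence.
DICER1 coding position 2635: tactgtgttCTACCTCttaatgttg
DICER1 coding position 3641: tgcaaccaaCTACCTCatattccat
DICER1 coding position 3749: ctaacaaatCTACCTCagatggaag
DICER1 coding position 5139: gattttggaCTACCTCataaccaag

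For comparison, the let-7 match occurred 4 times in the 3′ untranslated region of HMGA2 and 1 time each in those of IGF2BP2 and IGF2BP3. These 3 were picked for printing because they were called higher in KO replicate 1, so they show nothing about how matches relate to a rise. Other listed targets held as many matches or more without passing in either KO library, among them NR6A1 with 5, HIC2 with 4, and ARID3A, CDC25A and E2F2 with 2 each. Among all 3′ untranslated regions 8.77% held it. A match is a description of the letters and does not show that the site is used in these cells.
HMGA2 3′ UTR position 21: gttcgatttCTACCTCagcagcagt
HMGA2 3′ UTR position 1256: tactcaataCTACCTCtgaatgtta
HMGA2 3′ UTR position 1668: tgcaaagacCTACCTCcagacttca
HMGA2 3′ UTR position 2521: aacacactaCTACCTCttaagtccc
IGF2BP2 3′ UTR position 1304: cagaagaagCTACCTCaggtgtttt
IGF2BP3 3′ UTR position 560: tttactcaaCTACCTCaggtattca

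The levels of the 10 genes in EV control cells spanned about an order of magnitude. XPO5 was the highest at 26.9 ± 0.396 FPKM (SD, n = 2), followed by PRKRA at 26.1 ± 0.353, DROSHA at 22.7 ± 0.448, TARBP2 at 18.8 ± 0.817 and DGCR8 at 15.5 ± 0.265. The Argonaute genes and DICER1 were lower, with AGO1 at 9.16 ± 0.739 FPKM, AGO2 at 7.96 ± 0.824, DICER1 at 6.25 ± 0.771, AGO3 at 3.20 ± 0.176 and AGO4 at 2.34 ± 0.305. Genes next to each other in this order did not overlap between libraries, the closest being AGO1, whose lower library had 8.64 FPKM, and AGO2, whose higher library had 8.54 FPKM. With 2 libraries a group, that separation was not tested. Among the 12701 genes tested, XPO5 lay at the 74.0th percentile of EV control level, DICER1 at the 33.3rd and AGO4 at the 13.2nd.

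**Figure D1:**
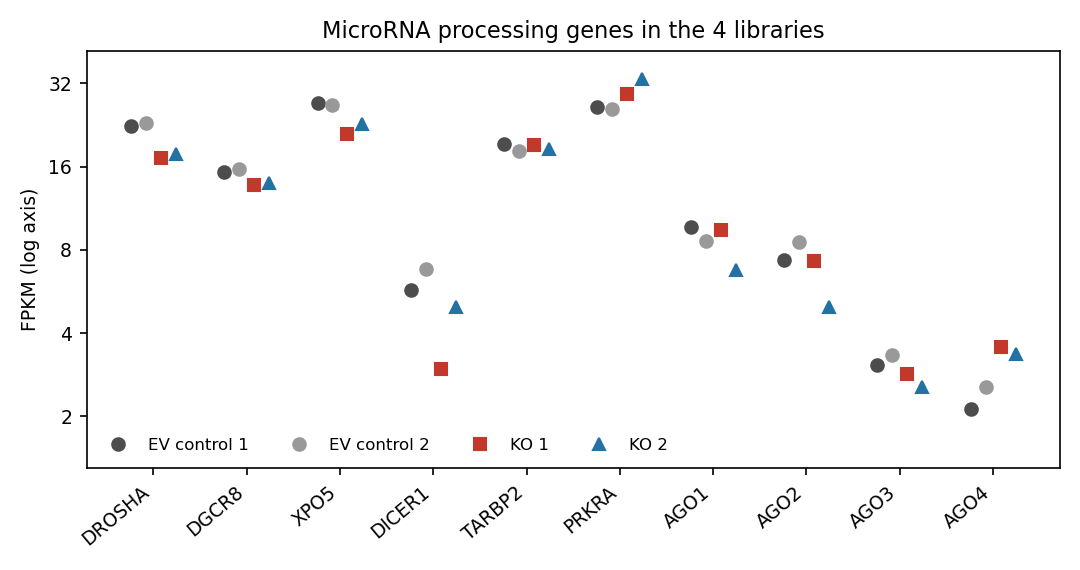
FPKM of the 10 genes (log axis) in each of the 4 libraries, grey circles for EV control, red squares for KO replicate 1 and blue triangles for KO replicate 2. Among the 4 libraries, DICER1 has its lowest value in KO replicate 1 at 2.97 FPKM, and AGO1 and AGO2 have theirs in KO replicate 2. DROSHA and XPO5 lie below the EV controls in both KO libraries.

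The first question was whether the KO libraries as a group differed from the EV controls. In the fit of 2 against 2 libraries, 0 of the 9 genes passed the threshold of 0.05 (limma-trend, Benjamini-Hochberg adjusted over 12701 genes), against 0.110% of all tested genes (0.0551% higher and 0.0551% lower). Before adjustment, at p under 0.05, AGO4 and PRKRA were higher (2 genes) and DROSHA and XPO5 lower (2 genes), where all tested genes gave 1172 and 917. Both KO libraries lay below both EV control libraries for 5 of the 9 (DROSHA, DGCR8, XPO5, AGO2 and AGO3), as for 25.6% of all tested genes. They lay above both for AGO4 and PRKRA, as for 26.5% of all tested genes. The median difference of the 9 genes was -0.17 on the log2(FPKM + 1) scale, and that of all tested genes was 0.00.

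Each KO library was then compared alone with the EV controls. In this fit the lone KO library is assumed to vary like the EV control libraries, which supply the 1 residual degree of freedom, so its calls compare that library and not the condition. For KO replicate 1, 2 of the 9 genes were lower and 0 higher, beside 6.83% lower and 6.28% higher of all tested genes (13.1% in either direction). For KO replicate 2, 2 of the 9 were lower and 1 higher, beside 6.59% lower and 10.9% higher of all tested genes (17.5%). These comparisons share the EV control libraries and are not independent of each other. All of these calls ended when no filter on low values was applied or when limma was run without its trend, and those in KO replicate 2 ended with quantile normalization.

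**Figure D2:**
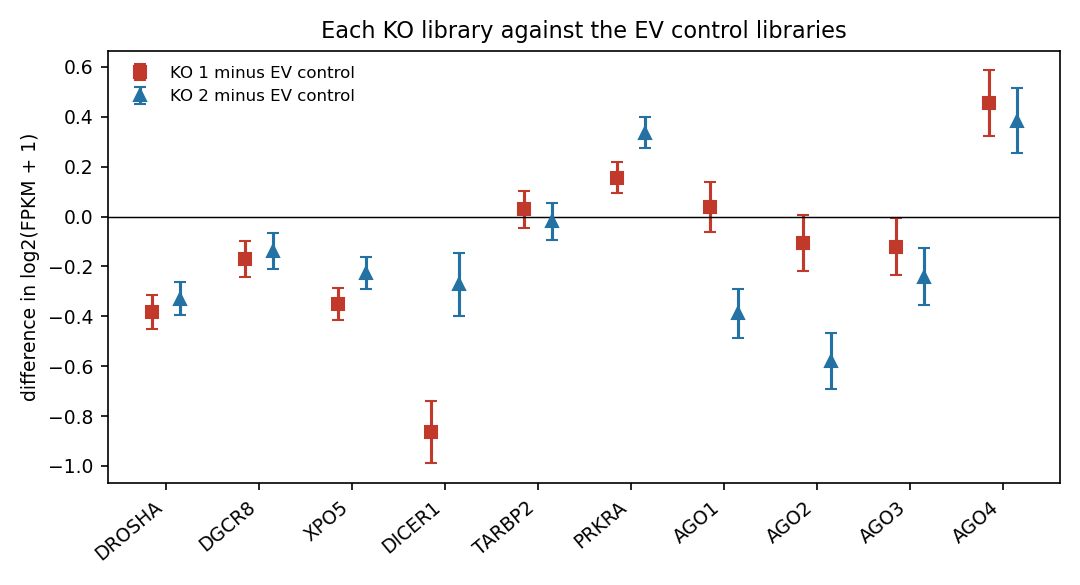
Difference in log2(FPKM + 1) of each KO library from the EV control mean for the 10 genes, with bars of 1 standard error from the fit. DICER1 is lower by 0.86 in KO replicate 1 and by 0.27 in KO replicate 2, whereas AGO4 lies above 0 in both.

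In the microprocessor, DROSHA, the nuclease that makes the first cut, had 22.4 and 23.0 FPKM in the EV control libraries and 17.2 and 17.8 FPKM in KO replicates 1 and 2. The KO libraries were alike and below both controls. The difference was -0.38 (SE 0.067, adjusted p = 0.0296) in KO replicate 1 and -0.33 (SE 0.067, adjusted p = 0.0353) in KO replicate 2, so DROSHA was the 1 gene of the 9 that fell in each KO library alone (limma-trend). In the fit of 2 against 2 libraries its difference was -0.36 (SE 0.077, 95% interval -0.56 to -0.16), with adjusted p = 0.198.

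DGCR8, which holds the hairpin for DROSHA, had 15.3 and 15.7 FPKM in EV control and 13.7 and 13.998 FPKM in the KO libraries. The groups did not overlap, but the differences of -0.17 and -0.14 in KO replicates 1 and 2 did not pass (limma-trend, adjusted p = 0.176 and 0.217). The ratio of DROSHA to DGCR8 in FPKM was 1.46 in each EV control library, 1.25 in KO replicate 1 and 1.27 in KO replicate 2. Exons of DGCR8 hold the hairpins of MIR1306 and MIR3618, which the microprocessor is known to cut, and both of these microRNA genes were listed at 0 in all 4 libraries.

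XPO5, the export receptor, had 27.2 and 26.7 FPKM in EV control, 20.9 FPKM in KO replicate 1 and 22.9 FPKM in KO replicate 2. It fell by 0.35 in KO replicate 1 (SE 0.064, adjusted p = 0.0321), and the difference of -0.22 in KO replicate 2 did not pass (adjusted p = 0.0668, limma-trend). The difference between the KO libraries themselves was -0.12 (95% interval -0.31 to 0.06). In GENCODE, exons of XPO5 share 348 bases with exons of POLR1C on the opposite strand. POLR1C kept 84.8% and 118% of its EV control level in KO replicates 1 and 2. No source used here says whether counting used strand, so reads of the pair may not be separated there.

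DICER1, the cytoplasmic nuclease, had 5.70 and 6.80 FPKM in the EV control libraries, 2.97 FPKM in KO replicate 1 and 4.99 FPKM in KO replicate 2. Both KO libraries were below both controls, at 47.6% and 79.8% of the EV control mean. The differences were -0.86 (SE 0.13) and -0.27 (SE 0.13) on the log2(FPKM + 1) scale, and that between the KO libraries was -0.59. With the principal transcript of 10331 bases, these levels correspond to about 765 and 940 fragments in EV control cells, 383 in KO replicate 1 and 662 in KO replicate 2. Counting error alone would give a coefficient of variation of 3.26% to 5.11%. The EV control libraries differed by more than that, and against EV control replicate 1 or replicate 2 alone the difference of KO replicate 1 was -0.76 or -0.97.

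The ratio of DROSHA to DICER1 in FPKM was 3.92 and 3.38 in the EV control libraries, 5.77 in KO replicate 1 and 3.58 in KO replicate 2. That of TARBP2 to DICER1 was 3.40 and 2.68 in EV control, 6.46 in KO replicate 1 and 3.72 in KO replicate 2. Both ratios have DICER1, the gene whose level chose the set, as denominator, so they restate its level and are no separate result.

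DICER1 and C14orf159 both lie on the long arm of chromosome 14, and DICER1 is the 26th tested gene after C14orf159 in gene order. The 20 tested genes on each side of DICER1 were therefore compared in the same fit. Of these 40 neighbours, 31 were lower and 1 was higher in KO replicate 1 (limma-trend, adjusted p under 0.05), against 6.83% and 6.28% of all tested genes. Their median difference was -0.76 and their median level 55.5% of EV control. DICER1 ranked 15th from the lowest among the 41. In KO replicate 2, 1 neighbour was lower and 4 were higher, beside 6.59% and 10.9% of all tested genes. There the median difference was 0.05, and DICER1 ranked 5th from the lowest. Without a filter on low values 0 neighbours passed in either library. The shift in KO replicate 1 was wider than these neighbours. There the 318 tested genes of chromosome 14 before C14orf159 had a median difference of 0.07. The 94 after it, DICER1 included, had -0.71. In KO replicate 2 these medians were 0.03 and 0.05. The cause was not tested. A low level of DICER1 on its own and one shared with its neighbours cannot be told apart in KO replicate 1.

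The nearest neighbours varied from gene to gene, and not all of them followed the median. On the side of C14orf159, SERPINA5 kept 28.7% and 20.9% of its EV control level in KO replicates 1 and 2, PPP4R4 79.1% and 157%, IFI27L2 46.4% and 115%, and IFI27 159.5% and 188%. On the far side, DICER1-AS1, the antisense transcript at the start of DICER1, kept 72.5% and 112%, CLMN 64.9% and 115%, and the small nucleolar RNA host gene SNHG10 52.3% and 99.3%. SCARNA13, a small RNA gene within SNHG10, varied widely, with 3.73 and 1.46 FPKM in EV control, 0 in KO replicate 1 and 8.87 FPKM in KO replicate 2. Exons of DICER1 and DICER1-AS1 share 80 bases. The antisense gene had 4.50 and 2.92 FPKM in EV control, 2.69 FPKM in KO replicate 1 and 4.15 FPKM in KO replicate 2, so its groups overlapped.

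The other 9 genes lie elsewhere in the genome, and their surroundings did not show this shift. For each, the median difference of the 38 to 40 tested genes nearest to it lay between -0.07 and 0.03 in KO replicate 1. In KO replicate 2 it lay between -0.09 and 0.07. AGO1, AGO3 and AGO4 lie together on chromosome 1 and share most of these neighbours, so their surroundings are not separate. DROSHA, on chromosome 5, ranked 4th and 3rd from the lowest of 41 in the KO libraries, and AGO2, on chromosome 8, ranked lowest of 41 in KO replicate 2.

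**Figure D3:**
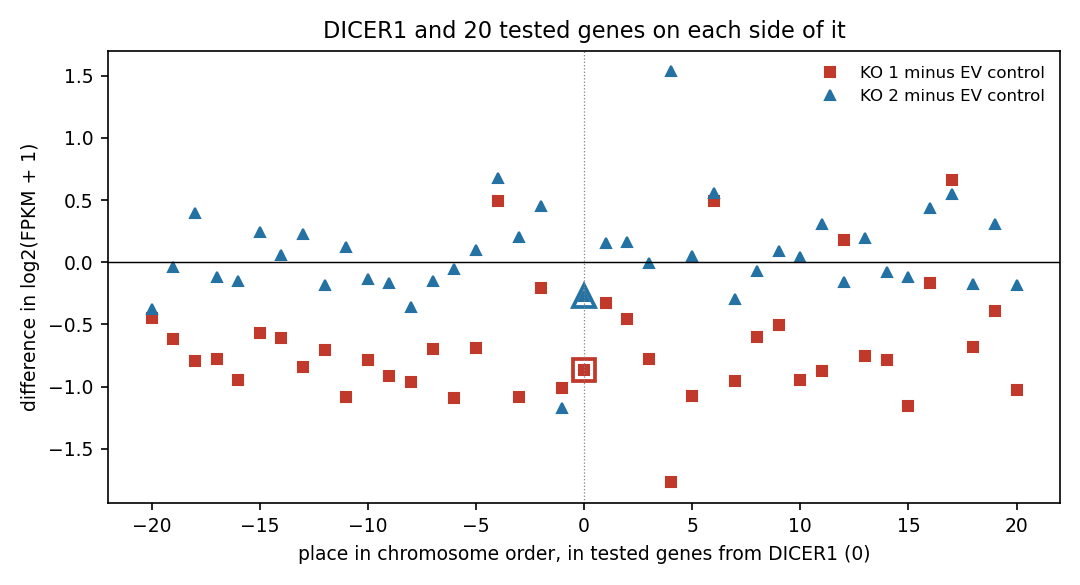
Difference in log2(FPKM + 1) from EV control for DICER1 (open outlines at place 0) and the 20 tested genes on each side of it in chromosome order, red squares for KO replicate 1 and blue triangles for KO replicate 2. In KO replicate 1 most neighbours lie below 0 with DICER1 among them (median -0.76), and in KO replicate 2 the neighbours scatter around 0 (median 0.05).

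Across the 4 libraries, the genes with the pattern most like that of DICER1 were sought by Euclidean distance of log2(FPKM + 1) centred on EV control, for tested genes averaging 5 FPKM or more. They were DYNC1H1 (51.9% and 76.4% of EV control in KO replicates 1 and 2), NOCT (54.7% and 79.7%), BTBD7 (45.3% and 75.3%), BAG5 (56.7% and 88.7%) and VPS9D1-AS1 (51.8% and 88.5%). DYNC1H1, BTBD7 and BAG5 lie on chromosome 14, NOCT on chromosome 4 and VPS9D1-AS1 on chromosome 16. With 4 libraries this likeness is only a description.

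The partners of DICER1 did not follow it. TARBP2, which steadies DICER1 and helps to load Argonaute, had 19.4 and 18.2 FPKM in EV control and 19.2 and 18.5 FPKM in KO replicates 1 and 2. The KO libraries lay within the range of the controls, and the difference of the groups was 0.00 (95% interval -0.20 to 0.21). PRKRA, its paralog and also an activator of the kinase PKR, had 26.4 and 25.9 FPKM in EV control, 29.2 FPKM in KO replicate 1 and 33.2 FPKM in KO replicate 2. Both KO libraries were above both controls. PRKRA rose by 0.34 in KO replicate 2 (SE 0.062, adjusted p = 0.0289), and the difference of 0.16 in KO replicate 1 did not pass (adjusted p = 0.156, limma-trend). The ratio of PRKRA to TARBP2 was 1.36 and 1.42 in EV control, 1.52 in KO replicate 1 and 1.79 in KO replicate 2.

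Among the effectors, AGO2 had 7.37 and 8.54 FPKM in EV control, 7.31 FPKM in KO replicate 1 and 4.98 FPKM in KO replicate 2. KO replicate 1 stood just under the lower control, and KO replicate 2 was well below it. AGO2 fell by 0.58 in KO replicate 2 (SE 0.11, adjusted p = 0.0321, limma-trend), and the difference of -0.11 in KO replicate 1 did not pass (adjusted p = 0.557).

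AGO1 had 9.69 and 8.64 FPKM in EV control, 9.42 FPKM in KO replicate 1 and 6.76 FPKM in KO replicate 2. Only KO replicate 2 left the range of the controls, and its difference of -0.39 did not pass (limma-trend, adjusted p = 0.0545). AGO3 had 3.07 and 3.32 FPKM in EV control and 2.86 and 2.55 FPKM in the KO libraries, differences of -0.12 and -0.24 that did not pass (adjusted p = 0.503 and 0.186).

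AGO4 went the other way. It had 2.12 and 2.55 FPKM in EV control, 3.56 FPKM in KO replicate 1 and 3.35 FPKM in KO replicate 2. Both KO libraries were above both controls, at 153% and 143% of their mean, and the differences of 0.45 and 0.38 did not pass (limma-trend, adjusted p = 0.0823 and 0.0970). The gene lies beside AGO1 and AGO3 on chromosome 1. It was the least abundant of the 10 in EV control and rested on about 196 to 316 fragments a library. With small RNA genes left out of the fit, AGO4 passed in KO replicate 1, and AGO1 and XPO5 passed in KO replicate 2. More of the other pathway genes passed in that fit too, and the share of all tested genes is not given here. These added calls therefore show nothing particular to AGO4, AGO1 or XPO5.

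The summed level of the Argonaute genes was 22.3 and 23.1 FPKM in EV control, 23.1 FPKM in KO replicate 1 and 17.6 FPKM in KO replicate 2. AGO2 made up 33.1% and 37.0% of this sum in EV control, 31.6% in KO replicate 1 and 28.2% in KO replicate 2. The share of AGO4 was 9.53% and 11.1% in EV control, 15.4% in KO replicate 1 and 18.99% in KO replicate 2. The paralogs can be told apart by sequence, since AGO1 and AGO2 shared none of their 50-base windows with transcripts of other genes, AGO4 shared 0.269% and AGO3 1.36%. DROSHA, XPO5, TARBP2 and PRKRA shared none, DICER1 0.233% and DGCR8 1.68%.

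A direct test of the KO libraries against each other gave 0 of the 9 genes (limma-trend, adjusted p under 0.05), where 10.2% of all tested genes passed (3.35% higher and 6.84% lower in KO replicate 1). Among the 9, the largest differences were those of AGO1 and AGO2, both higher in KO replicate 1, by 0.43 (95% interval 0.13 to 0.72) and 0.48 (0.15 to 0.81). Both passed in that contrast with small RNA genes left out of the fit, for which the share of all tested genes is not given here.

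Transcript length moved with the differences in KO replicate 2. The 3109 tested genes with the shortest principal transcripts (up to 1918 bases) had a median difference of 0.14 in that library, and the 3104 with the longest (4687 bases or more) had -0.10. These medians were -0.01 and -0.01 in KO replicate 1. PRKRA and TARBP2 have principal transcripts of 1826 and 1867 bases, and AGO1, AGO2 and AGO3 of 13708, 14581 and 19687 bases. Of 245 tested genes within 25% of the length of AGO2, with a median of -0.18, 13 were lower than AGO2 in KO replicate 2. For DICER1, 213 of 737 such genes were lower in KO replicate 2. In KO replicate 1 there were 3 of 737, a place that the choice of DICER1 for its low level there had fixed.

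With a correction for transcript length and GC content, added after the data were seen, the difference of AGO2 in KO replicate 2 was -0.38 and still passed (limma-trend, adjusted p = 0.0428), as did those of PRKRA at 0.28 (0.0279) and DROSHA at -0.24 (0.0444). AGO4 passed in both KO libraries with that correction, at 0.46 and 0.52. The share of all tested genes that passed with the correction is not given here, so its calls show nothing particular to the members. The difference of AGO1 in KO replicate 2 was then -0.19 and that of AGO3 0.03. DICER1 had -0.06 in KO replicate 2 and -0.82 in KO replicate 1.

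**Figure D4:**
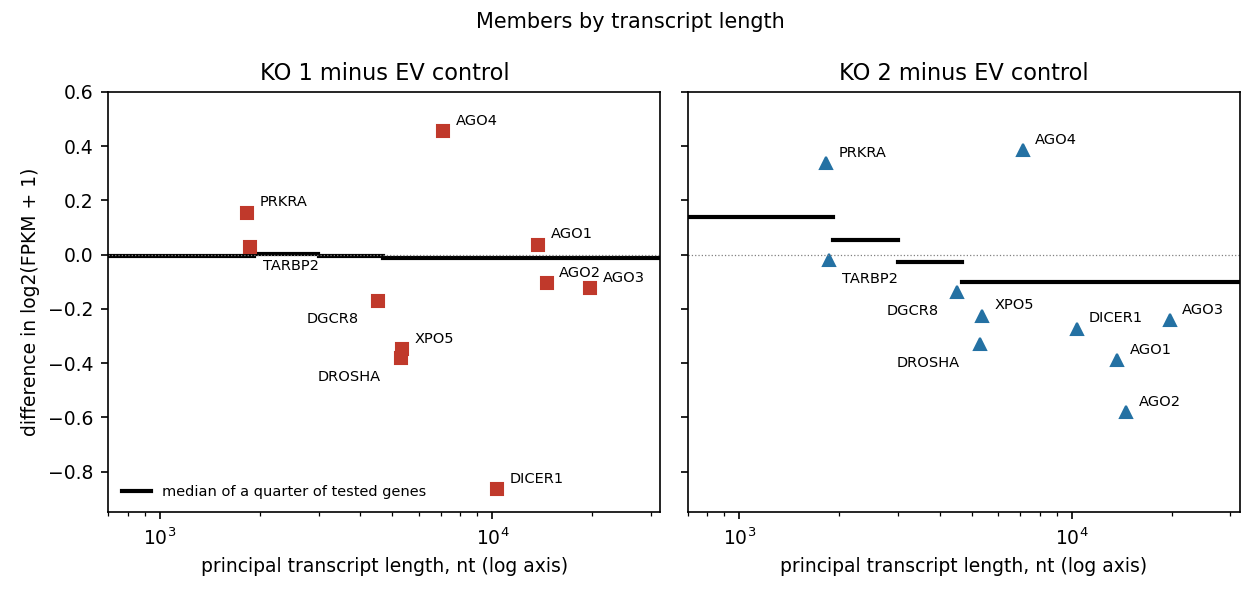
Difference in log2(FPKM + 1) from EV control for the 10 genes against the length of the principal transcript (log axis), KO replicate 1 on the left and KO replicate 2 on the right. Black lines are medians of tested genes in 4 length groups of about equal size. They are level in KO replicate 1 and step from 0.14 to -0.10 in KO replicate 2.

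The promoters of DICER1, DROSHA and XPO5 are printed for reference. Of the set, these genes had the most negative differences from EV control in KO replicate 1. The windows run from 250 bases before to 50 after the start (RefSeq, GRCh38.p14, a build other than the hg19 of the values). They lie at chr14:95157480-95157779, minus strand, chr5:31532044-31532343, minus strand and chr6:43575989-43576288, minus strand. Capitals mark GGGCGG, the core of the GC box, and CCAAT, on either strand.
DICER1 promoter: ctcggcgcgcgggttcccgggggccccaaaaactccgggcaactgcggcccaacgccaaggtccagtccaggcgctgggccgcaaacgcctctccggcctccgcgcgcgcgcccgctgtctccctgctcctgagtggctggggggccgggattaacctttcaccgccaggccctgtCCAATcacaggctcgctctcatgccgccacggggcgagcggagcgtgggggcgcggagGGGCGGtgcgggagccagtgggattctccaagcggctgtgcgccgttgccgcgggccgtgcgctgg
DROSHA promoter: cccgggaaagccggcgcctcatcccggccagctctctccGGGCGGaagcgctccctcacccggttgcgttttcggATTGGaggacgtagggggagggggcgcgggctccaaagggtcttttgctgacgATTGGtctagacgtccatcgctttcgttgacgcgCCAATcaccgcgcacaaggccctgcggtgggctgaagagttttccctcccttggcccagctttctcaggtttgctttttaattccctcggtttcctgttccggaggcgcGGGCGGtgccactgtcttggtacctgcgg
XPO5 promoter: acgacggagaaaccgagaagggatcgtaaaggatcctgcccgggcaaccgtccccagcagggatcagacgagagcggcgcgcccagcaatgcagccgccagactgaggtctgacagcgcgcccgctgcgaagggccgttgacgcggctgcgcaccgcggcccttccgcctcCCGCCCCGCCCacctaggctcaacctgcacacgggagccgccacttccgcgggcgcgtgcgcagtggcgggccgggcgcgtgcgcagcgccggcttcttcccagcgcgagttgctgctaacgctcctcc

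GGGCGG was found 1 time in the DICER1 window and 2 times in each of the other two, and it was present in 45.0% of 35116 promoter windows. CCAAT was found 1 time in DICER1, 3 times in DROSHA and 0 times in XPO5, and was present in 34.6% of windows. TATAAA (11.5% of windows) and the E-box CACGTG (7.26%) were in none of the 9 windows of members with an entry. These matches describe the letters only.

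The other genes of the pathway were taken as 6 lists, of which 120 genes reached the minimum level. In the fit of 2 against 2 libraries 0 of the 120 passed (limma-trend), beside 0.110% of all tested genes. An unadjusted p under 0.05 was reached by 7 higher and 8 lower genes, where the 12701 tested genes gave 1172 and 917. In KO replicate 1 alone 5 were higher and 9 lower, which is 11.7% of the 120 beside 13.1% of all tested genes. In KO replicate 2 alone 7 were higher and 7 lower, 11.7% beside 17.5%. The higher genes in KO replicate 2 include H19, which reached the minimum level only through the KO libraries, so its call there is no separate result. Whether the lists differ from the background was not tested. Without a filter on low values 0 of them passed in either library.

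Cofactors of the microprocessor had medians of -0.13 and -0.04 in KO replicates 1 and 2 (14 tested). The RNA helicase gene DDX17 had 73.6 and 77.7 FPKM in EV control and 92.8 FPKM in KO replicate 1, where it rose by 0.29 (limma-trend, adjusted p = 0.0417), and 74.6 FPKM in KO replicate 2. KHSRP, which binds precursor loops, had 95.7 and 96.3 FPKM in EV control, 83.4 FPKM in KO replicate 1 and 82.1 FPKM in KO replicate 2, where it fell (adjusted p = 0.0476). SRSF3, SAFB and NCBP1 kept 86.5% to 92.5% of EV control in the KO libraries and did not pass.

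Partners of DICER1 and of Argonaute loading had medians of -0.18 and -0.09 (15 tested). Of these, 5 fell and 0 rose in KO replicate 1, beside 6.83% lower and 6.28% higher of all tested genes, and the list itself was not tested. The 5 were HSP90AA1, HSP90AB1, HSPA8, STIP1 and FKBP4, which encode chaperones or cochaperones with many clients besides Argonaute. HSP90AA1 had 1600 and 1667 FPKM in EV control, 676 FPKM in KO replicate 1 and 1370 FPKM in KO replicate 2 (limma-trend, adjusted p = 0.00207 in KO replicate 1). Like DICER1 it lies on chromosome 14 beyond C14orf159. HSP90AB1, on chromosome 6, had 2296 and 2322 FPKM in EV control, 1640 and 1797 FPKM in the KO libraries, and fell in each (adjusted p = 0.0171 and 0.0288). HSPA8, STIP1 and FKBP4 kept 78.3%, 81.1% and 80.7% in KO replicate 1. In KO replicate 2, ADAR, which edits double-stranded RNA, fell to 78.2% (adjusted p = 0.0223), and FKBP5 rose to 149% (adjusted p = 0.0108).

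Silencing effectors, the proteins that Argonaute recruits to repress a messenger, had medians of -0.05 and -0.10 (34 tested). None (0) passed in KO replicate 1 (limma-trend), beside 13.1% of all tested genes. In KO replicate 2 the helicase gene DDX6 (80.3% of EV control) and GIGYF2 (78.1%) fell, beside 6.59% lower of all tested genes. That is near the share of all tested genes, and the list itself was not tested. CNOT1, the scaffold of the deadenylase complex, kept 85.4% and 84.2% and did not pass. Of the 10 tested genes of microRNA turnover, the nuclease gene XRN2 fell in KO replicate 1 to 52.0% of EV control (34.3 FPKM against 64.1 and 67.9 FPKM, adjusted p = 0.00437) and had 93.0% in KO replicate 2. LIN28A, LIN28B and TRIM71 did not reach the minimum level.

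Host genes and primary transcripts of microRNAs had medians of 0.06 and 0.09 (24 tested). EVL, host of miR-342, had 3.78 and 3.92 FPKM in EV control and 6.67 and 6.09 FPKM in the KO libraries, and rose in each (limma-trend, adjusted p = 0.0210 and 0.0264), although it lies on chromosome 14 among the neighbours of DICER1. MIR210HG, host of the hypoxia-induced miR-210, had 1.96 and 1.05 FPKM in EV control, 2.88 FPKM in KO replicate 1 and 4.15 FPKM in KO replicate 2, where it rose (adjusted p = 0.0412). EGFL7, host of miR-126, rose in KO replicate 2 to 171%. H19, host of miR-675, had 0.481 and 0.968 FPKM in EV control, 1.13 FPKM in KO replicate 1 and 2.74 FPKM in KO replicate 2. It reached the minimum level only through the KO libraries, so its higher level there is a description and no separate result. MIR4435-2HG fell in KO replicate 1 to 68.4%, as did MCM7, host of the miR-106b cluster, to 84.3%.

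MIR17HG, the primary transcript of the miR-17 cluster, had 3.70 and 4.52 FPKM in EV control, 2.71 FPKM in KO replicate 1 and 4.49 FPKM in KO replicate 2, and did not pass (limma-trend, adjusted p = 0.0871 and 0.582). The PANK genes host the microRNAs that pair with DICER1 as printed above. PANK1, host of miR-107, kept 80.1% and 83.6%, and the miR-103a hosts PANK2 and PANK3 kept 104% and 91.6%, and 94.4% and 80.0%. These 3 genes did not pass in either KO library.

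The let-7 targets had medians of 0.01 and 0.01 (23 tested), beside -0.00 and 0.01 over all tested genes. Of the 23, 3 rose and 1 fell in KO replicate 1, and 2 rose and 2 fell in KO replicate 2. Calls in either direction made up 13.1% and 17.5% of all tested genes, and 4 of 23 is near both. IGF2BP3, an RNA-binding protein of fetal tissue and tumours, had 13.4 and 15.1 FPKM in EV control and 26.7 and 23.6 FPKM in the KO libraries, and rose in each (limma-trend, adjusted p = 0.0108 and 0.0147). IGF2BP2 had 46.9 and 46.4 FPKM in EV control and 61.1 and 59.2 FPKM in the KO libraries, and rose in each (adjusted p = 0.0211 and 0.0240). HMGA2 had 55.4 and 57.4 FPKM in EV control, 80.2 FPKM in KO replicate 1 and 54.7 FPKM in KO replicate 2, and rose in KO replicate 1 (adjusted p = 0.0134). MYC fell in KO replicate 1 to 63.0% (adjusted p = 0.0107), and CDK6 fell in KO replicate 2 to 40.2% (adjusted p = 0.0114), as did PLAGL1 to 73.2%.

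Targets with more let-7 matches included genes above and below EV control. NR6A1 (5 matches) kept 139% and 117% of EV control in KO replicates 1 and 2, HIC2 (4 matches) 110% and 122%, ARID3A (2) 157% and 143%, CDC25A (2) 85.4% and 85.6%, and E2F2 (2) 73.4% and 106%. None of these 5 passed (limma-trend, adjusted p from 0.0623 to 0.707). CDK6 and PLAGL1, which fell, held no match in the 3′ untranslated region of the principal transcript, and PLAGL1 held 1 in its coding sequence. For MYC, which also fell, the transcript used has 0 bases of 3′ untranslated region, so no match could be found there.

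Over all tested genes, those with 1 or more let-7 matches in the 3′ untranslated region (1106 genes) differed by medians of 0.02 and -0.02 in KO replicates 1 and 2, against -0.01 and 0.02 in the 10094 genes without one. For the miR-103/107 match the medians were 0.00 and -0.03 in 1423 genes, against 0.00 and 0.03 in 9777 genes without. Genes with a match had longer 3′ untranslated regions, with medians of 2754 and 2803 bases against 959 and 914, and length moved with the differences in KO replicate 2 as given above. Its part in these medians was not tested.

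**Figure D5:**
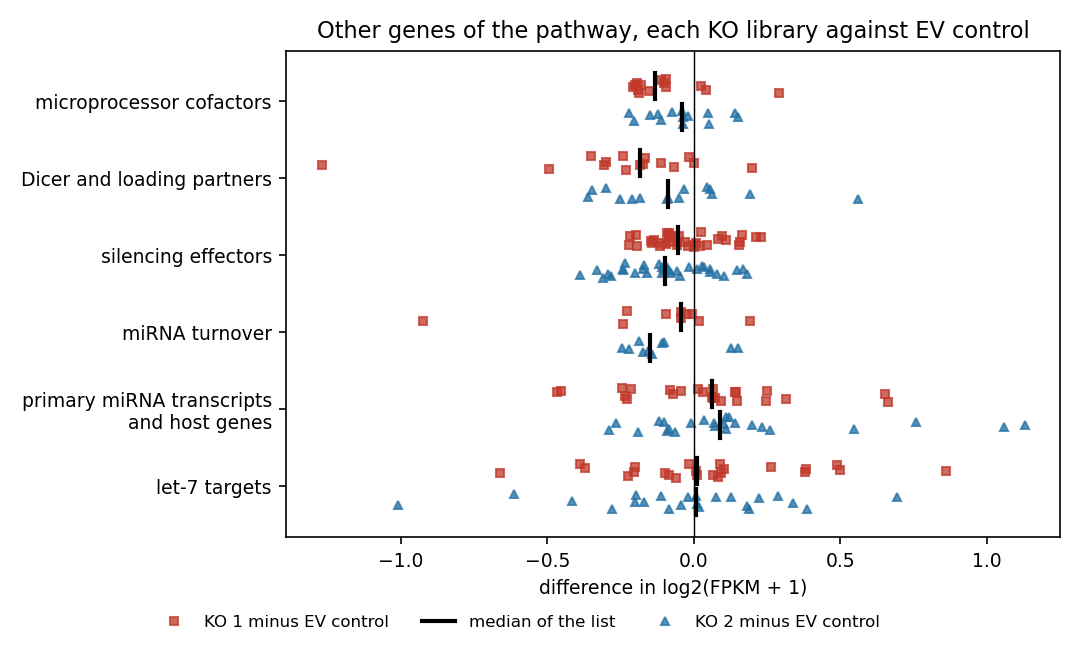
Difference in log2(FPKM + 1) of each KO library from EV control for every tested gene of the 6 lists, red squares for KO replicate 1 and blue triangles for KO replicate 2, with black bars at the medians (points are spread vertically for legibility). The medians lie between -0.18 and 0.09, and HSP90AA1 at -1.27 in KO replicate 1 is the lowest point.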

How the data were processed

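The authors deposited FPKM for each gene symbol in 1 table a library. The submitters' processing notes name Cuffnorm 2.2.1, SAMtools 0.1.19, Bowtie2 2.2.3, TopHat2 2.0.13 and the hg19 build. A stranded mRNA kit was used, per the labels' protocols. Neither the annotation, nor strand handling, nor scaling is given in the sources used here.

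Values were taken as log2(FPKM + 1). Genes with at least 1 FPKM in at least 2 of 4 libraries were fitted with limma 3.58.1 (trend, R 4.3.3), with 2 groups, or with 3 groups to set each KO library alone against EV control. The moderated variance had 4.82 total degrees of freedom with 2 groups and 5.14 with 3. Benjamini-Hochberg adjustment ran over all 12701 tested genes. The fit was tested on simulated data. The members, lists and tests were chosen with earlier results of these data known. From each list up to 4 genes with the lowest p in the 2-group fit and 2 in each lone-library fit were eligible to be named, besides the 4 nearest neighbours on each side of DICER1 and the 5 genes most like it. HMGA2, PLAGL1, NR6A1, HIC2, CDC25A, E2F2, HSPA8, STIP1, FKBP4, H19, MCM7, MIR17HG, LIN28A, LIN28B, TRIM71 and the PANK genes were named after their values were seen. Nothing about the seed matches or lengths was tested. Gene order came from the RefSeq table of GRCh38.p14 (98.4% of tested genes matched), transcript lengths and seed matches from GENCODE release 29 (97.8% had a length). Fragments were estimated from 2008 genes with a single transcript. Same-numbered replicates did not deviate together (r = -0.00455 across genes) and were not paired. Alternatives were pseudocounts of 0.1 and 0.5, no filter, a filter at 5 FPKM, median-of-ratios and quantile scaling, no trend, no small RNA genes, a replicate block, leaving out each library and, added after the data were seen, a correction for length and GC content (lowess, span 0.3).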

Additional observations from a re-analysis of the deposited data

How the results depend on the processing

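In the fit of 2 against 2 libraries, 0 of the 9 tested genes and 0 of the 120 list genes passed in every alternative that kept all 4 libraries, the replicate block (0 and 0) included. Leaving out 1 library in turn gave 0 to 4 of the 9 and 0 to 16 of the 120, the higher counts without either KO library. For each KO library alone, no filter on low values gave 0 of the 9, 0 of the 120 and 0 of the 40 neighbours of DICER1, in both libraries. Quantile normalization gave 1 of the 9 and 8 of the 120 in KO replicate 1, and 0 of the 9 and 3 of the 40 in KO replicate 2. Limma without the trend gave 0 of the 9 in both, 6 and 5 of the 120, and 3 of the 40 in KO replicate 2. Without small RNA genes there were 30 of the 120 in KO replicate 1, and 5 of the 9, 29 of the 120 and 14 of the 40 in KO replicate 2. That fit also gave 2 of the 9 between the KO libraries. The correction for length and GC content gave 27 of the 120 in KO replicate 1. The cause of these differences was not tested. The share of all tested genes that passed in each alternative is not given here. These counts therefore show nothing particular to the members, lists or neighbours. No called difference of the 9 genes changed sign in any alternative. DICER1 kept its sign too, but it was chosen for a low level in 1 of these same libraries, so that is no support. Among single-gene differences, 409 comparisons with an alternative kept their side of the threshold (or, for DICER1, moved by less than its spread), 14 gained a call, 14 lost it and 5, all of DICER1, moved by more than the spread. Some of the 409, all differences that did not pass, changed sign: those of TARBP2 in the comparisons with EV control, of AGO1 in the group fit and in KO replicate 1, of AGO3 in KO replicate 2, and of AGO3 and AGO4 between the KO libraries. With 2 libraries a group and 1 residual degree of freedom for a lone library, the spread is poorly known.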
